A study of Mus musculus with 8 samples.

Results

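Potassium channel genes were represented on the arrays by 179 of 56605 probes. The probes were taken as all non-control probes whose gene name in the array annotation begins with Kcn, followed by the letters of a family and a number, and they belonged to 97 of the 37074 gene names on the arrays, of which 48 had 1 probe and none had more than 6. The arrays measured RNA from tissue holding the cerebral cortex and striatum of 4 male BTBRTF/ArtRbrc mice (BTBR/R), a subline of an inbred strain used as a model of autism spectrum disorder, and of 4 male C57BL/6J mice (B6), with each mouse on an array of its own. BTBR/R mice carry the spontaneous mutations T, Itpr3 tf and a t, and no treatment is given for either strain. The mice were 4 months of age, apart from BTBR/R replicate 1 at 6 months. The 8 arrays lay on 1 slide, with B6 in column 1 and BTBR/R in column 2, and an effect of the column cannot be told apart from one of the strain.

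Potassium channels let potassium ions cross the membrane and thereby set the resting potential, end action potentials and shape the rhythm of firing. The pore is built from voltage-gated subunits (the Kcna, Kcnb, Kcnc, Kcnd, Kcnq and Kcnh families), inward rectifiers (Kcnj), tandem-pore leak channels (Kcnk), and channels gated by intracellular calcium or sodium (Kcnma, Kcnn, Kcnt). Further genes encode modifiers that form no channel on their own (Kcnf, Kcng, Kcns, Kcnv) and auxiliary subunits (Kcnab, Kcne, Kcnip, Kcnmb). In the cortex and striatum these genes are used by neurons of many kinds and also by astrocytes, vessels and the choroid plexus, so that in bulk tissue fewer cells of a type and less RNA per cell cannot be told apart.

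Each value below is a scaled signal, the log2 of the processed intensity of a probe minus the 75th percentile of its array, and each change is the BTBR/R mean minus the B6 mean on this log2 scale. A probe was detected on an array when the scanner software marked it well above background. Of the 179 probes, 116 (64.8%) of 74 genes were detected on all 8 arrays, against 50.4% of all probes. A further 14 were detected on all B6 arrays and no BTBR/R array, 22 on no array and 27 on other combinations. The scaled detection limits lay between -5.28 and -4.98 on the B6 arrays and between -3.97 and -3.55 on the BTBR/R arrays, so a dim transcript could be detected in B6 mice at a signal that was not detected in BTBR/R mice. Changes were tested with limma over all probes, and p-values were adjusted by the Benjamini-Hochberg method.

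**Figure D1:**
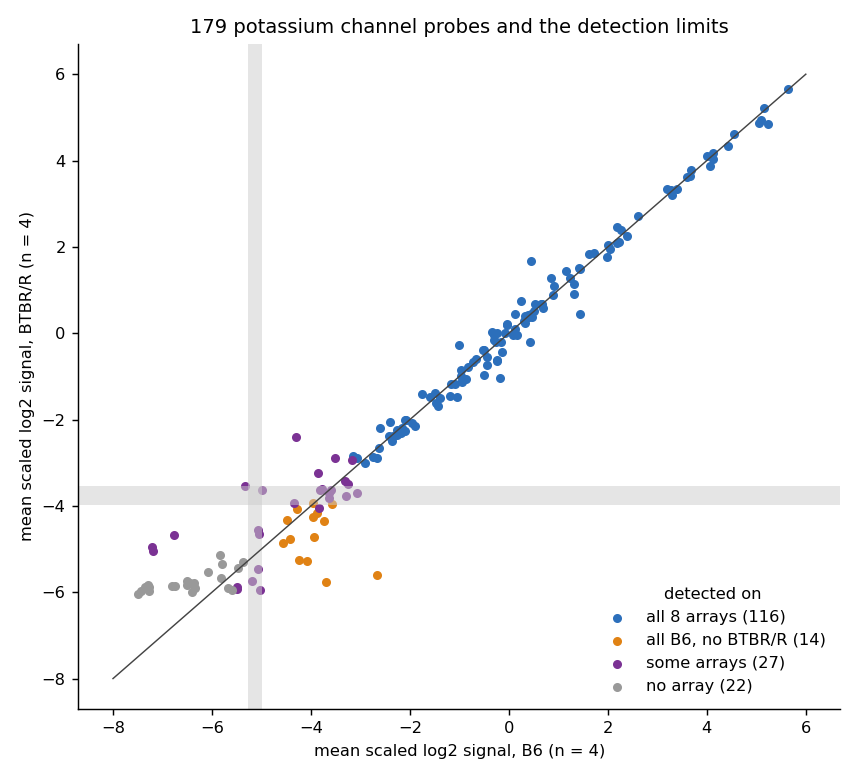
Mean scaled log2 signal of each of the 179 potassium channel probes in B6 mice (x axis) and BTBR/R mice (y axis), colored by the arrays on which the probe was detected; the line marks equal signals and the gray bands the range of the detection limits of each strain. The 116 probes detected on all 8 arrays lie close to the line, and the 22 probes detected on no array lie below both bands.

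At the level of the whole set the strains were close. Among the 116 probes detected on all 8 arrays, 13 (11.2%) were higher and 13 (11.2%) were lower in BTBR/R mice at an adjusted p below 0.05, while 13.0% of all probes detected on all 8 arrays were higher and 13.9% were lower. The median change was -0.003 for the potassium channel probes and 0.001 for all detected probes, and the median size of the change was 0.11 and 0.12, respectively. For 112 of the 116 probes the whole 95% confidence interval of the change lay within 2-fold in either direction (96.6%, against 94.7% of all detected probes). The exceptions were probes of Kcnn1, Kcnv1, Kcnab1 and Kcne2. Past the further threshold of a 2-fold change there was 1 probe of 116, a probe for Kcnn1, against 2.2% of all detected probes. With a probe of Kcnv1 it was 2 without B6 replicate 1, B6 replicate 3 or BTBR/R replicate 4, and with scaling by the median or by the 75th percentile of detected probes. When B6 replicate 1 and BTBR/R replicate 2, which stood apart in thalamus markers, were both left out, 16 detected probes passed the adjusted p threshold, of which 15 were among the 26. The share of all detected probes that passed in that setting is not given here, so this count describes the potassium channel probes only.

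**Figure D2:**
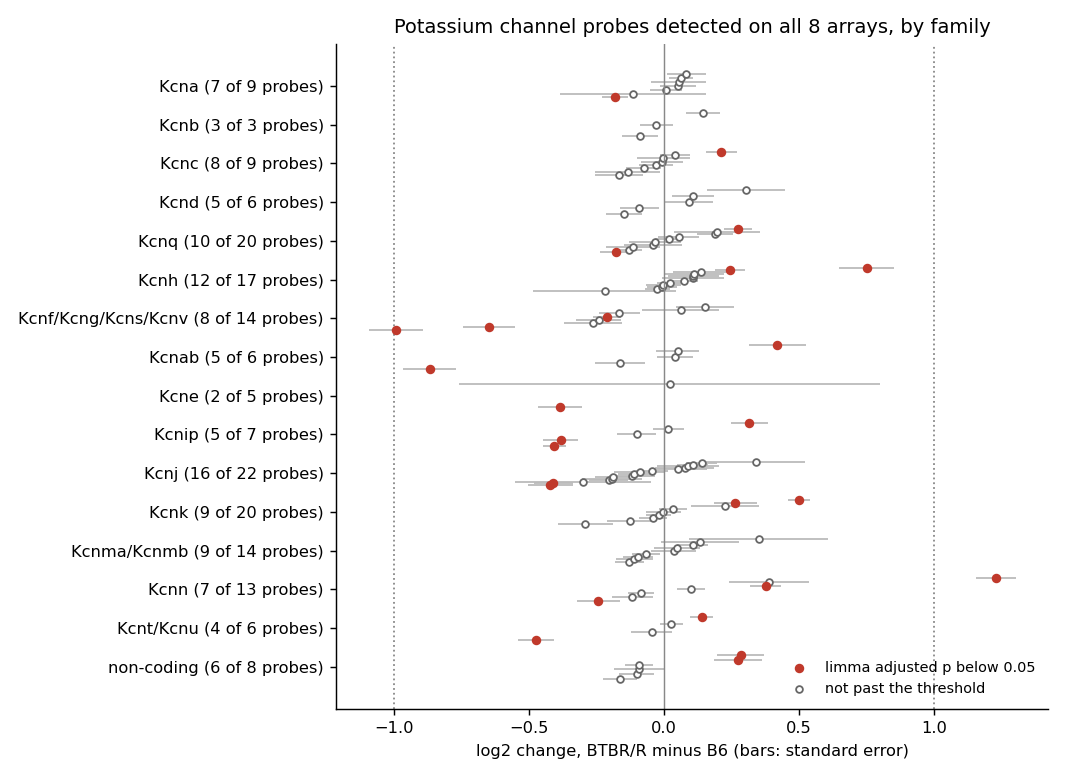
Change of each potassium channel probe detected on all 8 arrays (x axis, log2, BTBR/R minus B6, with its standard error), grouped by family with the number of detected probes of all its probes; filled points had a limma adjusted p below 0.05 and dotted lines mark 2-fold. Most points lie near 0, and a Kcnn1 probe at 1.23 is the only one beyond a dotted line.

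The largest change among detected probes was that of Kcnn1, which encodes a small-conductance channel opened by calcium that slows firing after action potentials. On its probe for transcript AF116525 the B6 mice had scaled signals of 0.45, 0.45, 0.55 and 0.36, and the BTBR/R mice 1.59, 1.63, 1.86 and 1.65. All BTBR/R mice thus lay far above all B6 mice, and the mean was 2.35-fold higher (change 1.23, SE 0.08, limma adjusted p = 2.76e-05). The detected probe for NM_032397 also rose, though by less. There the B6 mice had -0.46, -0.30, -0.33 and -0.26 and the BTBR/R mice -0.01, 0.06, 0.03 and 0.08, again without overlap (change 0.38, SE 0.06, limma adjusted p = 0.00139). A dimmer probe for NM_032397, detected on all 4 B6 arrays and on no BTBR/R array, had a change of 0.02 (SE 0.12) and did not pass the test (limma adjusted p = 0.897). The signals of both detected probes are for the same gene on the minus strand, and the change differed between them by 0.85 (SE 0.09, limma adjusted p = 0.000184). Their first 30 bases are given to show that the probes read separate sequences, at chr8:73367057-73367116 and chr8:73367405-73367464 of the mm9 build. Their positions do not overlap, and no letters are capitalized.
Kcnn1 probe for AF116525: aatgtatacacagtaagacgtggggtggca
Kcnn1 probe for NM_032397: cctgtgtgggaacccagaggcccagtttgg

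The other small-conductance channels moved less. A Kcnn3 probe fell by 0.24 (SE 0.08, limma adjusted p = 0.0474) with overlap between the strains, a call lost when any mouse other than B6 replicate 4 was left out (highest limma adjusted p without 1 mouse 0.111) and with normexp background correction (change -0.05). That call was also lost with spike-in scaling, a floor at the highest detection limit, the methods' t-test and a replicate block. Without the pair of B6 replicate 1 and BTBR/R replicate 2 it was lost as well. The other Kcnn3 probe, detected on 4 B6 and 3 BTBR/R arrays, had a change of 0.62 in the opposite direction and did not pass the test (SE 0.21, limma adjusted p = 0.0506). No detected probe of Kcnn2 passed the test (changes -0.12 to 0.39, 4 probes). The large-conductance channel gene Kcnma1, opened by both voltage and calcium, had 6 detected probes and none passed. Its brightest probe had a mean of 4.43 ± 0.05 (SD, n = 4) in B6 and 4.34 ± 0.08 (SD, n = 4) in BTBR/R mice. None of the 9 detected Kcnma and Kcnmb probes passed the test. The sodium-activated channel gene Kcnt1 rose by 0.14 on 1 probe (SE 0.04, limma adjusted p = 0.0327) and did not pass on another detected probe (change 0.03, limma adjusted p = 0.637) or on one detected on 4 B6 and 2 BTBR/R arrays (change 0.19, limma adjusted p = 0.55). The call of the former was lost when any mouse other than B6 replicate 1 was left out (highest limma adjusted p without 1 mouse 0.0864) and with normexp correction (change 0.08). That call was also lost with scaling by the median or by the 75th percentile of detected probes and with the replicate block. Without the pair of B6 replicate 1 and BTBR/R replicate 2 it was lost as well.

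Kcnu1, which encodes a channel best known from sperm, fell. The B6 mice had -0.56, -0.34, -0.55 and -0.57, and the BTBR/R mice -1.06, -0.98, -0.92 and -0.95. The strains did not overlap (change -0.47, SE 0.07, limma adjusted p = 0.00102).

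Modifier genes, whose products join Kcnb subunits and alter them, held the largest fall among detected probes. Of 8 detected probes in the Kcnf, Kcng, Kcns and Kcnv families, 3 fell and none rose, where 13.9% of all detected probes fell and 13.0% rose, and the median change was -0.23. For Kcnv1, on the probe at chr15:44937912-44937971, the B6 mice had 1.23, 1.53, 1.41 and 1.59, and the BTBR/R mice 0.35, 0.36, 0.44 and 0.64. Every BTBR/R mouse was below every B6 mouse, by 1.99-fold on average (change -0.99, SE 0.10, limma adjusted p = 0.000137). At chr15:44938838-44938897, in the same transcript NM_026200, the B6 mice had -1.49, -1.32, -1.46 and -1.50, and the BTBR/R mice -1.81, -1.53, -1.79 and -1.60. That change was -0.24 (SE 0.08), without overlap between the strains, and did not pass the test (limma adjusted p = 0.0538). The difference between the probes was itself past the threshold (-0.75, SE 0.10, limma adjusted p = 0.00109), and the first 30 bases of each are given because they come from 1 transcript.
Kcnv1 probe at chr15:44937912-44937971, minus strand: gagtgtatcaaagtctcttgcactatgaac
Kcnv1 probe at chr15:44938838-44938897, minus strand: ccaatcattgttatgacatcatagattcta

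A probe of Kcnv1 for transcript AK038450 was detected on all B6 arrays and on no BTBR/R array. Its B6 signals were -3.61, -4.04, -2.51 and -4.60 and its BTBR/R signals -5.98, -5.68, -5.70 and -5.64. The fitted change of -2.06 (limma adjusted p = 0.00569) rests on BTBR/R signals below the detection limit. With that limit taken into account the fall was at least 1.01-fold, with no bound left without B6 replicate 1, B6 replicate 3 or BTBR/R replicate 1, and with every signal floored at the highest detection limit the change was -0.26 and did not pass the test (limma adjusted p = 0.728).

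Kcnf1, which encodes a modifier, had B6 signals of 0.29, 0.52, 0.37 and 0.56 and BTBR/R signals of -0.29, -0.37, -0.13 and -0.05. The fall was 1.57-fold (change -0.65, SE 0.10, limma adjusted p = 0.00119), with no overlap. Kcns1 fell by 0.21 (SE 0.05, limma adjusted p = 0.0148), a call lost with scaling by spike-in probes (change -0.10, limma adjusted p = 0.412) and without the pair of B6 replicate 1 and BTBR/R replicate 2 (limma adjusted p = 0.0536). The other detected modifiers were Kcng1 (change 0.15), Kcng2 (0.06), Kcns2 (-0.26) and Kcns3 (-0.16), none past the threshold.

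Among auxiliary subunits, Kcnab1 encodes a cytoplasmic beta subunit of Kcna channels, and its probes did not change alike. On the probe for ENSMUST00000161956 the B6 mice had 0.04, -0.26, -0.31 and -0.20 and the BTBR/R mice -1.13, -1.16, -1.01 and -0.89. The strains were clearly apart, by 1.82-fold (change -0.87, SE 0.10, limma adjusted p = 0.00026). On the probe for NM_010597 they overlapped, with 3.23, 3.29, 3.26 and 3.34 in B6 and 3.39, 3.15, 3.36 and 3.38 in BTBR/R mice (change 0.04, SE 0.07, limma adjusted p = 0.66). The difference between the probes was 0.91 (SE 0.10, limma adjusted p = 0.000275). The first 30 bases show what each probe reads at its own site.
Kcnab1 probe for ENSMUST00000161956, chr3:65162678-65162737, plus strand: atttgaagtaaacagctatagctaggtatg
Kcnab1 probe for NM_010597, chr3:65182004-65182063, plus strand: atgatagagatgagctaactttccatctat

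Kcnab3, another beta subunit, was higher on its detected probe. The B6 mice had 0.98, 0.66, 0.70 and 1.10 and the BTBR/R mice 1.23, 1.31, 1.25 and 1.32. The BTBR/R mice were all higher, and varied less than the B6 mice (change 0.42, SE 0.10, limma adjusted p = 0.0158). The call was lost with the floor at the highest detection limit (limma adjusted p = 0.0507) and without the pair of B6 replicate 1 and BTBR/R replicate 2 (limma adjusted p = 0.0526). Neither detected probe of Kcnab2 passed the test.

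Calcium-binding proteins of the Kcnip family sit on Kcnd channels, which carry A-type currents, and Kcnip3 also acts as a transcriptional repressor. Both Kcnip3 probes detected on all arrays fell. On the probe for NM_019789 the B6 mice had -0.23, -0.23, -0.23 and -0.26, and the BTBR/R mice -0.69, -0.65, -0.59 and -0.63 (change -0.40, SE 0.04, limma adjusted p = 0.000141). On the probe for NM_001111331 the B6 mice had 5.16, 5.25, 5.24 and 5.27, and the BTBR/R mice 4.77, 4.73, 4.93 and 4.96 (change -0.38, SE 0.07, limma adjusted p = 0.00271), and the latter call was lost with spike-in scaling (change -0.27, limma adjusted p = 0.0605). The strains did not overlap on either, and the changes of the pair differed by 0.02 (SE 0.06, limma adjusted p = 0.841). A dim Kcnip3 probe, also for NM_001111331 and detected on all 4 B6 arrays and on no BTBR/R array, had a fitted change of 0.22 and did not pass the test (SE 0.18, limma adjusted p = 0.377). Its BTBR/R signals were below the detection limit, so no direction or fold can be read from it. Kcnip2 moved the other way, from 0.04, 0.20, -0.00 and 0.25 in B6 to 0.46, 0.38, 0.46 and 0.45 in BTBR/R mice (change 0.32, SE 0.07, limma adjusted p = 0.00847). Kcnip1 (-0.10) and Kcnip4 (0.02) did not pass the test. None of the 5 detected probes of the Kcnd channels passed either, with a mean for Kcnd2 of 2.62 ± 0.14 (SD, n = 4) in B6 and 2.71 ± 0.11 (SD, n = 4) in BTBR/R mice.

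The family of short membrane-spanning Kcne subunits had 2 detected probes. Kcne1l was lower in BTBR/R mice, with -0.16, -0.13, -0.25 and -0.38 in B6 and -0.57, -0.52, -0.58 and -0.79 in BTBR/R mice (change -0.38, SE 0.08, limma adjusted p = 0.00812). The strains did not overlap.

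In the Kcnh family Kcnh2, which encodes the ERG channel, was again split between its probes. On the probe that the annotation places at chr5:23827188-23827460, longer than the probe itself, the B6 mice had -0.73, -1.20, -1.14 and -0.999, and the BTBR/R mice -0.26, -0.27, -0.22 and -0.31. Every BTBR/R mouse was higher, and the mean was 1.68-fold higher (change 0.75, SE 0.10, limma adjusted p = 0.000751). The other detected probe, at chr5:23825407-23825466 in the same transcript NM_013569, had -0.66, -1.04, -1.16 and -1.01 in B6 and -0.93, -0.75, -0.85 and -0.89 in BTBR/R mice. These values overlapped (change 0.11, SE 0.11, limma adjusted p = 0.461), and the difference between the probes was 0.64 (SE 0.06, limma adjusted p = 0.000151). On both probes B6 replicate 1 had the highest B6 signal.
Kcnh2 probe at chr5:23827188-23827460, minus strand: tgaacaggctggaaacccggctaagtgcag
Kcnh2 probe at chr5:23825407-23825466, minus strand: tgatgactatgaataataaataattatcct

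Kcnh4, an ELK-type channel gene, rose on the dimmer probe and not on the brighter one. On the former the B6 mice had -0.21, -0.28, -0.28 and -0.17, and the BTBR/R mice -0.03, 0.03, 0.11 and -0.07 (change 0.25, SE 0.06, limma adjusted p = 0.0111), a call lost with the replicate block (limma adjusted p = 0.0685) and without the pair of B6 replicate 1 and BTBR/R replicate 2 (limma adjusted p = 0.0515). The brighter probe changed by -0.02 (SE 0.05), and the difference between the probes was -0.27 (SE 0.06, limma adjusted p = 0.0202). The other 10 detected Kcnh probes did not pass the test, among them Kcnh3, with means of 5.15 ± 0.07 (SD, n = 4) in B6 and 5.22 ± 0.05 (SD, n = 4) in BTBR/R mice.

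**Figure D3:**
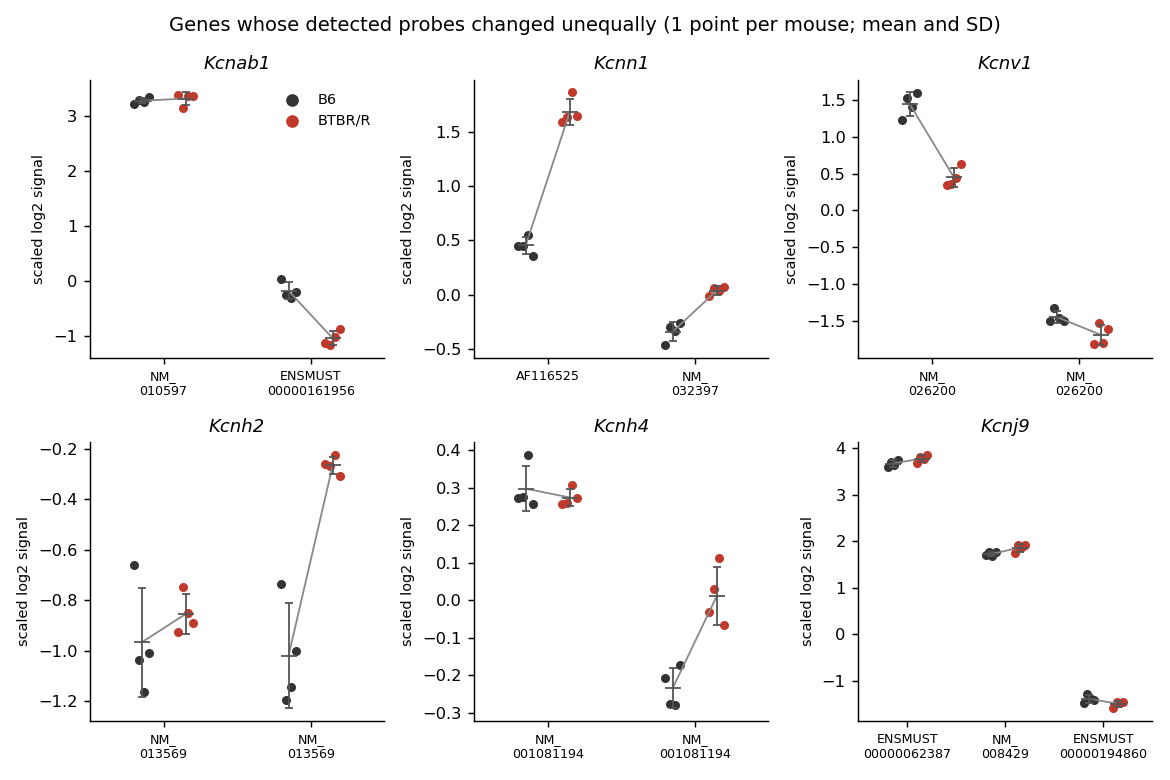
Scaled log2 signal (y axis) of every detected probe of the 6 genes whose brightest and dimmest probes changed unequally, labeled by transcript; each point is a mouse, B6 in black and BTBR/R in red, with mean and SD, and gray lines join the strain means. In Kcnab1, Kcnh2 and Kcnh4 a probe with separated strains stands beside one on which they overlap. In Kcnn1 and Kcnv1 both probes are separated, by unequal amounts.

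In all, 28 potassium channel genes had at least 2 probes detected on all 8 arrays. The brightest and the dimmest of them changed by different amounts in 6 of the 28 genes, against 18.1% of the genes so tested on the array. These were Kcnab1, Kcnn1, Kcnv1, Kcnh2, Kcnh4 and Kcnj9. In Kcnj9, which encodes a subunit of the G protein-gated inward rectifier, no single probe passed the test, and the difference between the brightest (0.11) and the dimmest (-0.11) probe was 0.22 (SE 0.06, limma adjusted p = 0.0254). The calls for Kcnh4 and Kcnj9 were lost when a single mouse was left out (highest limma adjusted p 0.0583 and 0.0758). Of the 179 probes, 1, a probe for Kcnh6, shared a stretch of 30 bases with a probe of another annotation, AK146672.

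Other voltage-gated genes changed by small amounts. Of the 7 detected Kcna probes, 1 fell, that of Kcna1, an axonal delayed rectifier, where 13.9% of all detected probes fell. Its B6 signals were 4.09, 4.03, 4.06 and 4.07 and its BTBR/R signals 3.90, 3.78, 3.91 and 3.94 (change -0.18, SE 0.05, limma adjusted p = 0.0231), without overlap. The call was lost without B6 replicate 1, 3 or 4 (highest limma adjusted p without 1 mouse 0.0552). It was also lost with scaling by spike-in probes (change -0.06, limma adjusted p = 0.56) and with the replicate block (limma adjusted p = 0.0678). Without the pair of B6 replicate 1 and BTBR/R replicate 2 it was lost as well. Kcna6 did not pass the test on its brightest probe, with means of 4.55 ± 0.06 (SD, n = 4) in B6 and 4.61 ± 0.02 (SD, n = 4) in BTBR/R mice. Of the 8 detected probes of the Kcnc family, whose channels allow fast spiking, 1 rose, where the share of all detected probes was 13.0%. It was a Kcnc1 probe (change 0.21, SE 0.06, limma adjusted p = 0.0237), beside 2 other Kcnc1 probes that changed by -0.07 and -0.17 and did not pass. Its call was lost without B6 replicate 2 or BTBR/R replicate 2 or 4 (highest limma adjusted p without 1 mouse 0.0589). That call was also lost with median scaling and the replicate block, and without B6 replicate 1 and BTBR/R replicate 2 together.

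Kcnq3 and Kcnq5 encode subunits of the M current, which restrains repetitive firing. The brighter detected probe of Kcnq3 had -0.87, -0.98, -0.93 and -1.04 in B6 and -1.17, -1.04, -1.18 and -1.13 in BTBR/R mice. It fell by 0.18 (SE 0.06, limma adjusted p = 0.0444), with the closest mice of the strains nearly equal. The call was lost without B6 replicate 1, 2 or 3 or BTBR/R replicate 1, 3 or 4 (highest limma adjusted p without 1 mouse 0.104). It was also lost with spike-in scaling, the floor and the replicate block, and without B6 replicate 1 and BTBR/R replicate 2 together. The dimmer probe of the gene did not pass the test (change 0.20, SE 0.16, limma adjusted p = 0.369).

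Among inward rectifiers, which hold the membrane near the potassium potential, 2 of 16 detected Kcnj probes fell and none rose, where 13.9% of all detected probes fell and 13.0% rose. Kcnj2 had 1.22, 1.50, 1.28 and 1.26 in B6 and 0.94, 0.83, 0.94 and 0.92 in BTBR/R mice (change -0.41, SE 0.07, limma adjusted p = 0.00327). Kcnj14 had -0.94, -1.16, -1.14 and -0.96 in B6 and -1.47, -1.49, -1.32 and -1.61 in BTBR/R mice (change -0.42, SE 0.08, limma adjusted p = 0.00571). The strains did not overlap for either gene. A dim Kcnj2 probe, detected on all 4 B6 arrays and on no BTBR/R array, had a fitted change of -0.61 (SE 0.16, limma adjusted p = 0.0215). On this dim probe the strains overlapped, and the BTBR/R signals were below the detection limit, so no fold could be given. Its change was -0.17 with normexp correction (limma adjusted p = 0.124) and -0.02 with the floor at the highest detection limit (limma adjusted p = 0.728). The highest limma adjusted p without 1 mouse was 0.0526. Kcnj4, the gene of the brightest Kcnj probe, had means of 5.06 ± 0.09 (SD, n = 4) and 4.87 ± 0.22 (SD, n = 4), which did not pass the test (change -0.19). Kcnj8, the pore of the vascular ATP-sensitive channel, changed by -0.20 (SE 0.07, limma adjusted p = 0.0578), beside its regulatory subunit Abcc9, which fell by 0.21 (SE 0.05, limma adjusted p = 0.00912).

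Tandem-pore channels carry the leak current at rest, and 2 of 9 detected Kcnk probes rose, beside 13.0% of all detected probes. A bright probe of Kcnk10, a TREK-type channel opened by stretch and lipids, had 0.27, 0.26, 0.20 and 0.23 in B6 and 0.71, 0.75, 0.73 and 0.77 in BTBR/R mice. Each strain was narrow and the gap was 1.42-fold (change 0.50, SE 0.04, limma adjusted p = 4.01e-05). A dimmer Kcnk10 probe of the same transcript, detected on all 4 B6 arrays and on no BTBR/R array, had a change of -0.38 in the opposite direction and did not pass the test (SE 0.16, limma adjusted p = 0.103). This direction rests on BTBR/R signals that were not detected, and with the floor at the highest detection limit the change was -0.06 (limma adjusted p = 0.568). Kcnk12 rose by 0.27 (SE 0.08, limma adjusted p = 0.0352), a call lost without B6 replicate 1, 2 or 3 or BTBR/R replicate 2 or 4 (highest limma adjusted p without 1 mouse 0.0855). That call was also lost with median scaling, the floor and the replicate block, and without B6 replicate 1 and BTBR/R replicate 2 together. Kcnk1 had means of 2.01 ± 0.06 (SD, n = 4) and 2.05 ± 0.05 (SD, n = 4) and did not pass the test.

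**Figure D4:**
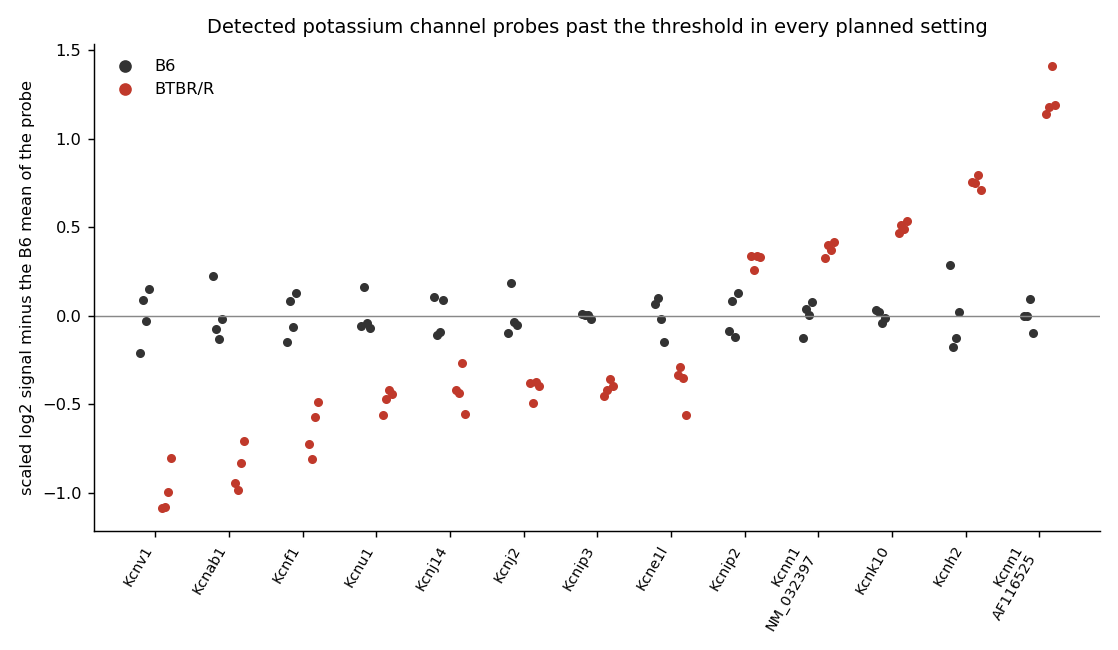
Scaled log2 signal of each mouse minus the B6 mean of the probe (y axis) for 13 of the 14 detected probes that kept a limma adjusted p below 0.05 in every planned setting, in order of their change; B6 in black, BTBR/R in red. On these 13 probes the 4 BTBR/R mice lie to one side of the 4 B6 mice. The probes were chosen by this threshold, which favors separated strains.

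Some names of the pattern belong to non-coding transcripts of channel loci. Of their 8 probes, 6 were detected on all arrays and 2 of these rose, beside 13.0% of all detected probes. Kcnq1ot1, an imprinted RNA antisense to Kcnq1, rose on a probe at chr7:150440140-150440199 (change 0.28, SE 0.09, limma adjusted p = 0.0363), a call lost without any of the B6 mice or without BTBR/R replicate 3 or 4 (highest limma adjusted p without 1 mouse 0.082). That call was also lost with quantile normalization, median scaling, the floor and the replicate block. Without the pair of B6 replicate 1 and BTBR/R replicate 2 it was lost as well. The other 3 detected Kcnq1ot1 probes changed by -0.16, -0.10 and -0.09 and did not pass. A further probe listed under the spelling KCNQ1ot1 lay outside the pattern and rose by 0.45 (SE 0.06, limma adjusted p = 0.00078). Kcnmb4os2, transcribed opposite Kcnmb4, changed by 0.28 (SE 0.09, limma adjusted p = 0.0448) with overlap between the strains, a call lost without B6 replicate 1, 2 or 3 or BTBR/R replicate 1, 2 or 4 (highest limma adjusted p without 1 mouse 0.105). The Kcnmb4os2 call was also lost with quantile normalization, median scaling, the floor, the methods' t-test and the replicate block. Without the pair of B6 replicate 1 and BTBR/R replicate 2 it was lost as well. Kcnd3os did not pass the test (change -0.09).

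Most calls at 2-fold were of dim probes. With a 2-fold threshold added to the adjusted p, 12 of the 179 probes counted as called higher and 4 as called lower, against 20.2% of all probes called higher and 2.27% called lower. The sets differ in detection, with 64.8% of the 179 probes and 50.4% of all probes detected on all arrays. Of the 12 higher, 6 were detected on no array, 3 on a single BTBR/R array, and the others included probes of Kcnn1 and Kcnk15. All 4 lower probes were detected in every B6 mouse and in no BTBR/R mouse.

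A Kcnk15 probe for ENSMUST00000109396, of a gene in the acid-sensitive leak channel group, had -4.06, -4.59, -5.08 and -3.52 in B6, where it was detected on 3 arrays, and -2.82, -3.12, -2.51 and -1.12 in BTBR/R mice, where it was detected on all 4. The fitted rise was 3.78-fold (change 1.92, SE 0.50, limma adjusted p = 0.0202). The change was smaller with normexp correction (change 1.06, limma adjusted p = 0.0222) and did not pass the test with every signal floored at the highest detection limit (change 1.15, limma adjusted p = 0.173). The call was also lost without B6 replicate 2 or without B6 replicate 3 (changes 1.82 and 1.66). The other Kcnk15 probe, for NM_001030292, was detected on all 4 B6 arrays and on no BTBR/R array, and its change of 0.15 did not pass the test (SE 0.31, limma adjusted p = 0.741). A Kcnq5 probe for ENSMUST00000115299 had -2.30, -1.40, -2.02 and -4.95 in B6 and -5.57, -5.71, -5.54 and -5.57 in BTBR/R mice. B6 replicate 4 stood near its detection limit and the other B6 mice well above theirs. The fall was at least 2.05-fold, and between 1.53-fold without B6 replicate 2 and 3.48-fold without B6 replicate 4 as a lower bound. The fitted change was -2.93 (limma adjusted p = 0.0144), and with the floor it was -1.23 and did not pass the test (limma adjusted p = 0.152). The 3 Kcnq5 probes detected on all arrays changed by -0.13, -0.04 and 0.06 and none passed. For Kcng4, a modifier gene, no fold could be given (means -4.07 and -5.28, limma adjusted p = 0.0236).

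Kcnq1, best known as the pore of a slow cardiac current, was measured by 5 probes, none of them detected on a BTBR/R array. An overlapping pair on the plus strand was detected on all B6 arrays. One of the pair, for XM_006508488, had -4.38, -4.45, -4.10 and -4.03 in B6 and -5.90, -5.34, -4.95 and -4.81 in BTBR/R mice and was called lower (limma adjusted p = 0.0137). The other, for NM_008434, had -4.35, -3.35, -4.22 and -3.82 in B6 and -4.83, -5.02, -4.06 and -5.01 in BTBR/R mice and did not pass the test (limma adjusted p = 0.067). The BTBR/R signals were below the detection limit, so neither has a fold. The pair shared 51 of 60 bases, and capitals mark the shared bases within the first 30 of each.
Kcnq1 probe for NM_008434, chr7:150612887-150612946: aatttcgtaGTATGATCTTGATTGAGAGAC
Kcnq1 probe for XM_006508488, chr7:150612896-150612955: GTATGATCTTGATTGAGAGACTTTTCCAAA

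Some channel genes varied more between mice of a strain than between strains. Kcne2, known from the choroid plexus, had -0.94, -1.34, -2.37 and -4.38 in B6 and -3.29, -1.51, -1.93 and -2.21 in BTBR/R mice. Kcnj13, an inward rectifier also found there, had 0.28, 0.25, -0.20 and -0.84 in B6 and -0.67, -0.25, -0.36 and -0.43 in BTBR/R mice. Neither passed the test (changes 0.02 and -0.30). The choroid plexus gene Ttr had 5.22, 4.87, 3.66 and 0.55 in B6 and 2.13, 4.53, 4.28 and 3.93 in BTBR/R mice, and within each strain the mice stood in the same order for Ttr, Kcne2 and Kcnj13. All 4 choroid plexus markers were detected on all arrays and none passed the test, and their mean ranged from -1.39 to 1.24 in B6 and from -0.49 to 0.63 in BTBR/R mice. The part of choroid plexus tissue in these values was not tested.

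**Figure D5:**
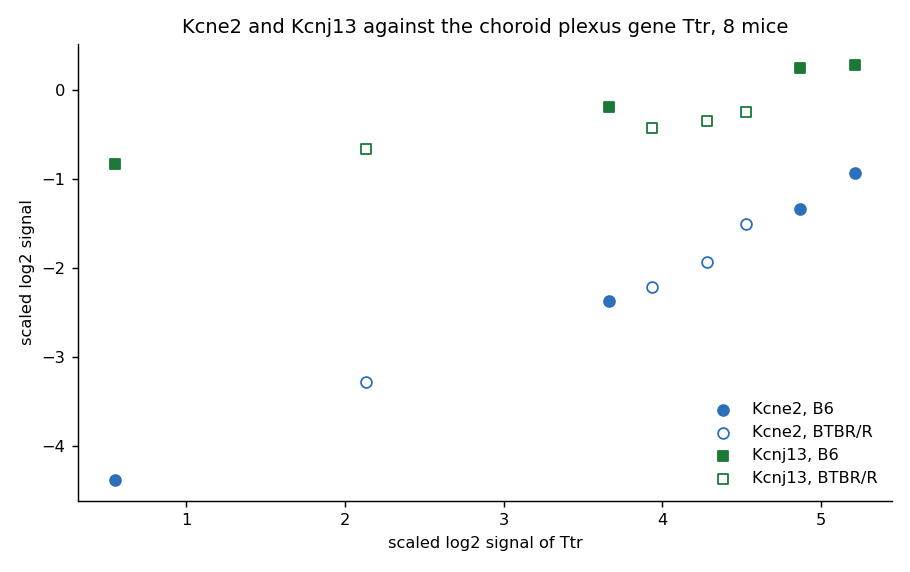
Scaled log2 signals of Kcne2 (circles) and Kcnj13 (squares) against that of the choroid plexus gene Ttr (x axis), 1 point per mouse, filled for B6 and open for BTBR/R. Within each strain the mice with more Ttr had higher signals of both genes, and B6 replicate 4, at 0.55 for Ttr, was lowest on all 3.

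Markers of other cells and regions were read on the same arrays. The mean of 3 thalamus markers was 2.38 in B6 replicate 1 and 1.78 in BTBR/R replicate 2, against 0.66 to 0.71 in the other B6 and 0.62 to 0.98 in the other BTBR/R mice. On BTBR/R replicate 2 Kcnj6, a G protein-gated rectifier, stood at -0.85, and at -1.63 to -1.54 in the other BTBR/R mice. On B6 replicate 1 it stood at -1.63, against -1.90 to -1.71 in the other B6 mice. The shares of all detected probes that rose and fell, 13.0% and 13.9%, stand beside the counts that follow. All 3 excitatory and all 7 striatal projection neuron markers were detected and none passed the test. Of the oligodendrocyte markers 2 of 5 fell, of the astrocyte markers 2 of 4 and of the endothelial and mural markers 2 of 5, one of which is Abcc9. The mean of the endothelial and mural list was 0.40 to 0.50 in B6 and 0.16 to 0.34 in BTBR/R mice, that of the astrocyte list 2.73 to 2.84 and 2.48 to 2.80, and that of the oligodendrocyte list 3.98 to 4.39 and 3.74 to 3.99. Of the inhibitory neuron markers 1 of 5 fell, of the microglia markers 1 of 4 rose and 1 fell, of the hippocampus markers 1 of 3 rose, and the 4 measured red cell markers all fell. Kcnj10, a glial inward rectifier, had means of 4.13 ± 0.18 (SD, n = 4) in B6 and 4.18 ± 0.13 (SD, n = 4) in BTBR/R mice and did not pass the test. The part of these cell types in the channel gene changes was not tested.

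Of 19 genes whose proteins associate with potassium channels or act beside them but whose names lie outside the pattern, 17 were detected on all arrays, and of these 3 rose and 1 fell, beside 13.0% and 13.9% of all detected probes. Dpp6 and Dpp10, membrane partners of Kcnd channels, rose by 0.33 (SE 0.08, limma adjusted p = 0.0165) and 0.25 (SE 0.06, limma adjusted p = 0.0103). Amigo1, a partner of Kcnb channels, rose by 0.20 (SE 0.05, limma adjusted p = 0.0129), and the fall was that of Abcc9. Their median change was 0.06. No Hcn gene, of the pacemaker channels, passed the test (changes -0.04 to 0.24).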

How the data were processed

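RNA of 4 B6 and 4 BTBR/R mice was measured on Agilent 1-color arrays, grouped by the strain in the labels, 1 mouse per array. The authors deposited Feature Extraction 10.7.3.1 intensities of every spot, with background and spatial trends removed and a surrogate in place of low signals, and log2 values from GeneSpring, used here as an alternative. Control and outlier spots were left out and repeated spots of a probe averaged, leaving 56605 probes. Log2 processed signals minus the 75th percentile of each array were tested with limma 3.58.1 in R 4.3.3, and other steps used scipy 1.17.1, pandas 2.3.3, numpy 2.4.6 and matplotlib 3.10.9 under Python 3.11.15. A floor, a filter, other scalings and corrections, the methods' t-test, a replicate block and leaving out mice were alternatives. On simulated data for this comparison over 56583 probes, 178 of 200 probes changed by 3 on the log2 scale were called, including 96 of 96 detected on all arrays, with 3 unchanged probes called. The number of arrays limits the precision, and a fold given as a lower bound uses no dim-group signal below the detection limit.

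All 97 gene symbols were found in the RefSeq table, 154 probes also by accession. Positions are the mm9 positions of the array annotation. Exon and UTR annotation was not used here. A gene is represented by its brightest probe where 1 is named. The text names genes with a called probe detected on every array of a strain, the 10 largest changes among detected probes, the brightest gene of each family, genes with unequal probes and non-coding transcripts (34 genes in all, of which a few are not reported here). Other genes were named after their values were seen. The members and gene lists were chosen with earlier results of these data known.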

Additional observations from a re-analysis of the deposited data

Results flagged for a closer look

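On 5 probes 1 mouse stood apart from the other 3 of its strain by Dixon's test at its 95% critical value, among 77 groups of 4 mice tested, and chance gives about 1 in 20. In BTBR/R mice, Kcnab1 on the probe for NM_010597 was lowest in replicate 2 (3.15, the others 3.36 to 3.39), Kcnj2 was lowest in replicate 2 (0.83, the others 0.92 to 0.94), and Kcns1 was highest in replicate 4 (1.85, the others 1.74 to 1.75). In B6 mice, the brighter Kcnh4 probe was highest in replicate 3 (0.39, the others 0.26 to 0.27) and Kcnu1 was highest in replicate 2 (-0.34, the others -0.57 to -0.55).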

How the results depend on the processing

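All 26 detected probes past the threshold kept their direction in every setting, 14 kept an adjusted p below 0.05 in every planned one and 18 without each mouse in turn. Matching counts over all probes are not given for the alternative settings, so the counts in them describe the members only. The number of called probes, 16, was 3 with normexp correction, 8 with quantile normalization, 1 with a floor at the highest detection limit, 6 when probes had to be detected on every array of a strain and 1 when on all 8, where fewer probes were tested. The number at an adjusted p below 0.05 was 47 of all 179, higher and lower together. Of all probes, of which a smaller share was detected on all arrays, 27.7% passed higher and a further 11.6% lower. The number was 20 with the floor, 31 on probes detected on all 8 arrays and 58 with limma's trend and robust options. These options gave 36 detected probes, 20 of them lower. With B6 replicate 1 and BTBR/R replicate 2 left out, a setting chosen after seeing the data, the number was 27, and 16 for detected probes. Normexp correction raised the genes with unequal probes from 6 to 13. Scaling by spike-in probes moved the median change of all probes from 0.07 to 0.19 and that of the detected members to 0.11, and the detected members split into 17 higher and 8 lower, against 8 and 14 with median scaling. The cause of these moves was not tested beyond the settings' own construction. Leaving out a mouse gave 12 to 16 called probes, 34 to 46 and, among detected probes, 19 to 25 at the adjusted p threshold, 4 to 8 genes with unequal probes and median changes of -0.02 to -0.002. Replicate numbers did not pair the mice (correlations of same-numbered deviations -0.07 to 0.16, and 1 of 4 numbers correlated best with itself). The replicate block left 17 detected probes past the threshold and 12 called. For the dim probes of Kcng4, Kcnq1 and Kcnv1 (AK038450) normexp changes were -0.07, -0.29 and -0.62, all under 2-fold, although Kcnq1 and Kcnv1 passed the adjusted p threshold (limma adjusted p = 0.00498 and 0.0414), and with the floor those of Kcnq5 and Kcnk15, -1.23 and 1.15, were not called. The call of Kcng4 was lost without B6 replicate 1 or 3 or BTBR/R replicate 3, and that of Kcnq1 (XM_006508488) without B6 replicate 3 or 4 or BTBR/R replicate 1 or 2. With the pair of mice left out, the dim probes of Kcng4, Kcnq1 and Kcnq5 were not called (-1.17, -1.03 and -2.77), nor were Kcng4 and Kcnq1 with quantile normalization, Kcnq1 with spike-in scaling and Kcng4 with the block. The detected Kcnv1 probe passed 2-fold with median scaling (-1.02), detected-probe scaling (-1.004), without the mouse pair (-1.03) and without B6 replicate 1 (-1.06), B6 replicate 3 (-1.002) or BTBR/R replicate 4 (-1.05). Detection limits bound what can be said of dim members.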
